A study of Drosophila melanogaster with 4 samples.

Results

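Female and male Drosophila melanogaster embryos were compared at the end of the collected time course. All embryos came from the same hybrid cross, of virgin DGRP_737 mothers with DGRP_352 fathers, both from inbred lines. The stocks were raised at 25 °C in 60% humidity, and embryos were up to 3 h old, per the labels, which give neither age nor sex for a single embryo. RNA of each embryo was read by a scaled-down CEL-Seq2 protocol, in which a primer on the poly(A) tail carries a barcode for the embryo and a random tag for the molecule (unique molecular identifier, UMI), in 4 pooled libraries that were treated as batches. A son receives his only X from his DGRP_737 mother and his Y from his DGRP_352 father, whereas a daughter carries an X of each line.

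The last 61 of the 245 embryos in the authors' order (ranks 185 to 245) were taken. Sex was assigned from the authors' allele values of 2 X-linked genes that are transcribed by the embryo, gt (giant, a gap gene, X:2427113-2428967) and sog (short gastrulation, an inhibitor of Dpp signalling, X:15603283-15633434; all coordinates are from the annotation of build BDGP6). Embryos with a summed paternal share of at least 10% were called female, and those under 3% male. The embryos were thus chosen by these allele values. This gave 34 females, 26 males and 1 embryo in neither class. The paternal share at gt and sog, which chose the embryos and is given only as a description, ran from 17.9% to 57.7% in females and from 0% to 2.44% in males, of which 19 were at 0%. The lowest 2 females had 17.9% and 21.9%. The embryo in neither class, at the last rank, had 4.76% on 21 units of signal and 163287 UMIs. The sexes were spread over the order, with a median rank of 212.5 in females and 217.5 in males. Total UMIs per embryo ran from 200192 to 1133171 in females (median 619766) and from 181430 to 1351569 in males (median 552964). Libraries 1 to 4 held 8, 8, 9 and 9 females and 7, 4, 9 and 6 males.

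In Drosophila, sex is read from the number of X chromosomes. Signal elements on the X, among them sisA, sc, run and upd1, switch on the early promoter of Sex-lethal (Sxl) in embryos with a pair of X chromosomes, and Sxl protein, an RNA-binding splicing regulator, then keeps the gene on and blocks production of msl-2 protein. In males, without Sxl protein, msl-2 forms the dosage compensation complex with msl-1, msl-3, mle, the H4K16 acetyltransferase mof and the noncoding RNAs roX1 and roX2, which raises transcription of the male X. Before that complex is fully active, X-linked genes can be transcribed in proportion to the number of their copies.

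The assigned sex was first set beside signals the rule had not used. Across the other 346 X-linked genes with allele values, the paternal share was 24.6% ± 9.33 (SD, n = 34) in females and 0.871% ± 0.671 (SD, n = 26) in males. The egg background, from 8 unfertilized eggs, was 0.744% ± 0.274 (SD). In males 24 of 26 lay between 0.473% and 0.963%, inside the egg range of 0.324% to 1.17%. The other 2 males had 2.82% and 3.37%, with Sxl at 217 and 223 UMIs per 1000000 (CPM), inside the range of the remaining males. The lowest female had 4.74%, and her autosomal share, 6.77%, was the lowest of all females. Autosomal paternal shares were 27.3% ± 8.73 (SD) in females and 27.5% ± 9.51 (SD) in males. These shares are a description, since the rule used the same kind of measure.

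**Figure D1:**
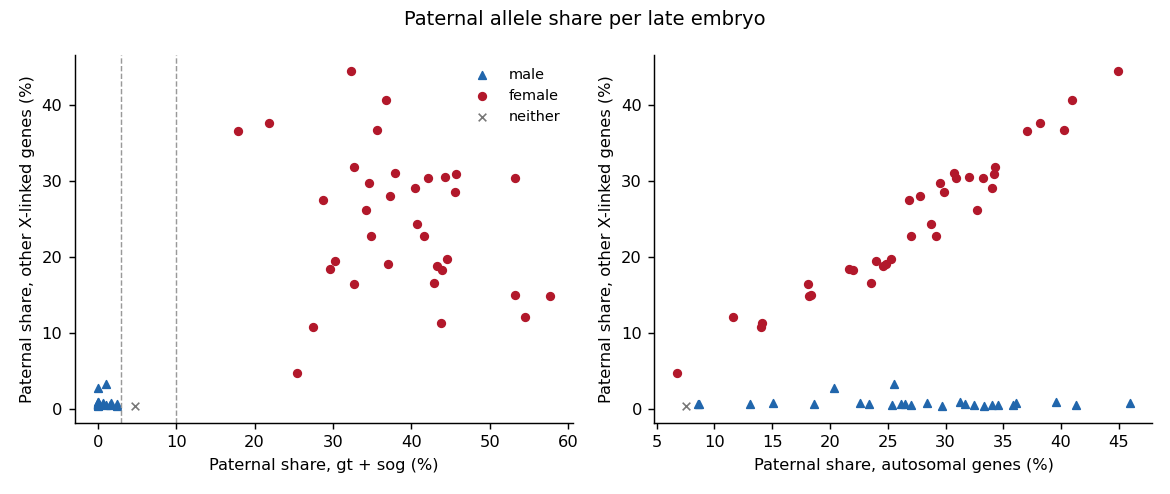
Paternal share of allele signal in each of the 61 late embryos, in percent, with the other X-linked genes on the vertical axis against gt plus sog (left, dashed lines at 3% and 10%) and against autosomal genes (right). Males (triangles) stay below 3.4% at other X-linked genes at every autosomal share, while females (circles) run from 4.74% to 44.5%.

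Transcripts of the Y chromosome, which no female receives, gave a separate check. Over the 113 annotated Y-linked genes, the 34 females had 0 UMIs among 20369194, and the 26 males had 56 among 15228470. A UMI from the Y was seen in 21 of 26 males, with a median of 2 and a maximum of 6 per embryo. The 8 unfertilized eggs had 1 UMI in all. Taken over the group, the female floor is 0.147 CPM (3 counts of all female UMIs), and the male level of 3.68 CPM was at least 25.0-fold higher. Of the male UMIs, 44 fell on Su(Ste) genes, near-identical repeats that silence the X-linked Stellate repeats in the testis and among which the authors' counting could split reads. In the list of 12 Y-linked fertility and related genes, kl-3, which encodes a sperm dynein chain, had 6 UMIs, kl-2 and kl-5, also dynein chains, had 2 each, and the other 9 had none. Of the 7 testis and sperm markers, can, sa and dj were at 0 UMIs in both sexes, and aly and Mst87F had 1 UMI each, in males. The other two were found in both sexes, mia with 149 UMIs in females and 133 in males and bam with 76 and 74. The summed level of the list ran from 0 to 24.1 CPM in females (median 9.52) and from 3.21 to 25.7 CPM in males (median 13.3). Of the 9 follicle and eggshell markers, 5 were at 0, and their summed level ran from 0 to 6.75 CPM in females and from 0 to 6.65 CPM in males.

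Sxl and msl-2 separated the sexes. Sxl (X:7074550-7098053) ran from 594 to 2413 CPM in females with a median of 1385, and from 197 to 527 CPM in males with a median of 281. No male reached the lowest female. The difference was 2.26 ± 0.15 (log2 fold change ± SE, female against male, edgeR quasi-likelihood adjusted p of 8.06e-19), and within libraries 1 to 4 it was 2.35, 2.11, 2.16 and 2.36. Eggs had a median of 114 CPM. The gene msl-2 (2L:3462218-3466112) ran from 21.7 to 71.6 CPM in females (median 39.9) and from 68.4 to 279 CPM in males (median 155), so that 25 of 26 males lay above the highest female. Its log2 fold change was -1.84 ± 0.13 (adjusted p of 1.03e-17), and it was negative in each library, from -2.28 to -1.42. Eggs had a median of 7.71 CPM of msl-2.

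Across the transcriptome, differences between the sexes were mostly on the X. Of 4617 genes tested after a filter on low counts, without gt and sog, 187 were higher in females (4.05% of genes tested) and 51 higher in males (1.1% of genes tested) at an adjusted p under 0.05. X-linked genes made up 176 of the former and 20 of the latter, out of 781 X-linked genes tested. Among 3804 autosomal genes, 10 were higher in females and 30 higher in males. The remaining pair of calls were pre-ribosomal RNA units on an unplaced rDNA scaffold. With rank added to the fit, 362 genes were higher in females and 217 higher in males. Without library 2, 3 or 4 the female count was 115, 98 and 106, and without library 3 or 4 the male count was 21 and 30.

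The median log2 fold change of X-linked genes was 0.20 (quartiles 0.03 and 0.39), and 78.4% of them had a positive value. The autosomal median was -0.02, with 44.3% positive. The X-linked median was 0.16, 0.25, 0.17 and 0.23 within libraries 1 to 4, and the autosomal median lay between -0.03 and -0.01. In 4 segments of the X with equal numbers of tested genes, the median ran from 0.17 to 0.22. Among autosomes, chromosome arms 2L, 2R, 3L and 3R had medians between -0.03 and -0.01, and chromosome 4, with 47 genes tested and 0 called by edgeR (4 at an unadjusted p under 0.05), had a median of 0.08. X-linked genes with a mean under 1 CPM in eggs, which are supplied little or not at all by the mother, had a median of 0.59 over 19 genes, of which 7 were called higher in females and 0 higher in males. The 762 X-linked genes with more RNA in eggs had a median of 0.20, with 169 higher in females and 20 higher in males. Autosomal genes under 1 CPM in eggs had a median of -0.02 over 138 genes. Passing the filter on low counts required UMIs in these embryos, so that these medians do not cover genes that were silent in both sexes. A gene could also pass through the embryos of 1 sex alone, where it is higher. The part of this in the medians and calls of genes scarce in eggs was not tested.

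**Figure D2:**
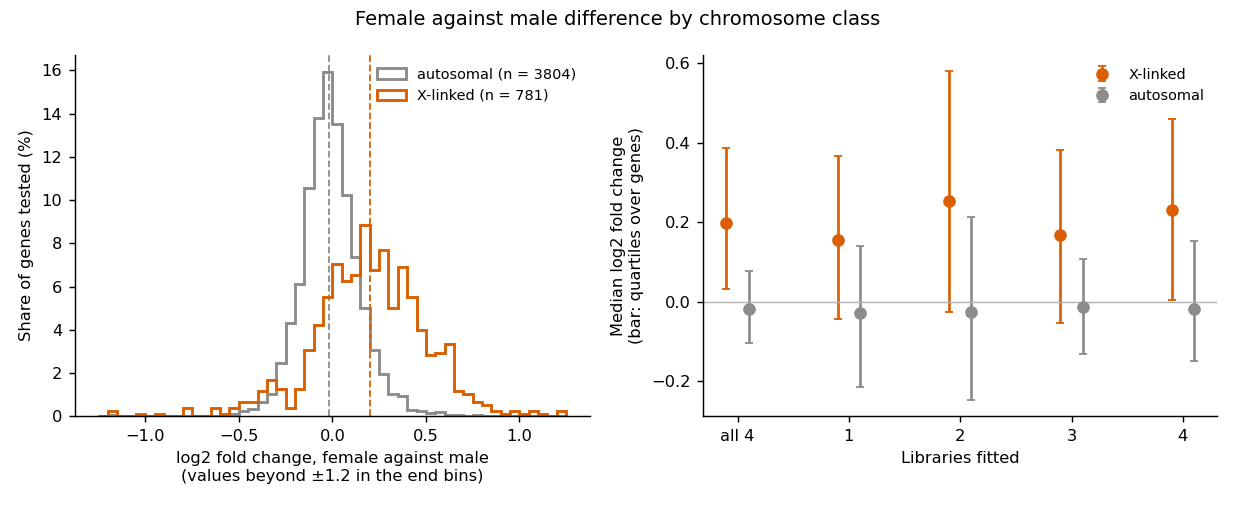
Left, share of genes tested, in percent, by log2 fold change of female against male late embryos for 781 X-linked and 3804 autosomal genes (dashed lines at the medians of 0.20 and -0.02). Right, median and quartiles over genes with all libraries in the fit and within each library, where the X-linked median lies above the autosomal one in all 4.

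Of the 12 called genes with the largest log2 fold change toward females, 10 were X-linked, and the other two were the rDNA unit pre-rRNA:CR45845, second after Sxl, and Tsp39D. CG1673 rose from a median of 57.5 CPM in males to 149 CPM in females (1.35 ± 0.26, adjusted p of 0.000218), with 20 of 34 females above the highest male and 2.13 CPM in eggs. CG12219 had medians of 9.39 CPM in males and 21.1 CPM in females (1.14 ± 0.15, adjusted p of 3.41e-08). DIP-alpha, an immunoglobulin-family cell surface protein, had 12.2 and 33.6 CPM (1.07 ± 0.19). Pmp70, a peroxisomal membrane transporter, had 21.9 and 41.4 CPM (1.00 ± 0.10, adjusted p of 6.73e-11), against 55.0 CPM at the egg median. Its log2 fold change ran from 0.84 to 1.18 within libraries. CG11436, CG34015, l(1)G0020, CR15345 and the noncoding lncRNA:CR43264, all X-linked, had log2 fold changes from 0.85 to 1.01. The tetraspanin gene Tsp39D, on 2L, had 0.94 ± 0.28 with an adjusted p of 0.0336, and missed the threshold whichever of the 4 libraries was left out. CG11436 shares 1996 bases with lncRNA:CR32773 on the same strand, and 10 of the 24 genes named for size overlap a gene on the opposite strand. The strand used in counting is not given in the sources used here, so that reads of such pairs cannot be told apart.

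The largest differences toward males included 3 members of the dosage compensation complex. The X-linked acetyltransferase gene mof (X:5873840-5876853) ran from 0 to 18.1 CPM in females (median 5.94) and from 8.38 to 57.6 CPM in males (median 24.9). The ranges overlapped, with 18 of 26 males above the highest female, and the log2 fold change was -2.05 ± 0.21 (adjusted p of 4.62e-11). Eggs had a median of 19.8 CPM of mof, between the male median and the highest female. The autosomal msl-3 had 14.0 CPM in females and 23.6 CPM in males at the median (-0.86 ± 0.12, adjusted p of 4.28e-07), against 53.0 CPM in eggs.

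Other X-linked genes also had more RNA in males, although males have 1 X. The RNA-binding protein gene ssx, or sister of Sex-lethal, the paralog of Sxl, ran from 146 to 255 CPM in females (median 190) and from 227 to 455 CPM in males (median 331). Its log2 fold change was -0.77 ± 0.07 (adjusted p of 6.77e-13), 23 of 26 males lay above the highest female, and it differed in the direction opposite to Sxl in each library. ND-B18, a subunit of mitochondrial complex I, had 123 and 233 CPM (-0.95 ± 0.09, adjusted p of 8.67e-12). The ubiquitin-conjugating enzyme gene ben had 175 and 409 CPM (-1.05 ± 0.16). The small GTPase gene Rab10, the zinc finger gene Zpr1, CG18508 and the flotillin gene Flo2 had log2 fold changes of -0.75, -0.77, -1.22 and -0.63. Flo2 had 0.02 within library 1, and it was no longer called without library 3 or 4. The autosomal MetRS-m, a mitochondrial methionyl-tRNA synthetase, had -0.67 ± 0.18 and was no longer called without library 2, 3 or 4.

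Both called rDNA units differed in opposite directions. The unit pre-rRNA:CR45847 (rDNA scaffold, 66807-74924) had a median of 0 CPM in females (highest 6.75) and 34.0 CPM in males (lowest 3.09, highest 157), or 17 and 634 UMIs in all. It was detected in 10 of 34 females and in 26 of 26 males, and its log2 fold change was -5.29 ± 0.35 (adjusted p of 1.28e-18). The unit pre-rRNA:CR45845 (rDNA scaffold, 42623-49485) had medians of 2898 CPM in females and 972 CPM in males (1.50 ± 0.21, adjusted p of 2.78e-07), and 22 of 34 females lay above the highest male. Arrays of rRNA genes lie on both X and Y, and their units are near-identical, so that the split of reads between the annotated copies is uncertain. Mature rRNA is not polyadenylated in the main, and what part of rRNA these UMIs sample was not tested.

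**Figure D3:**
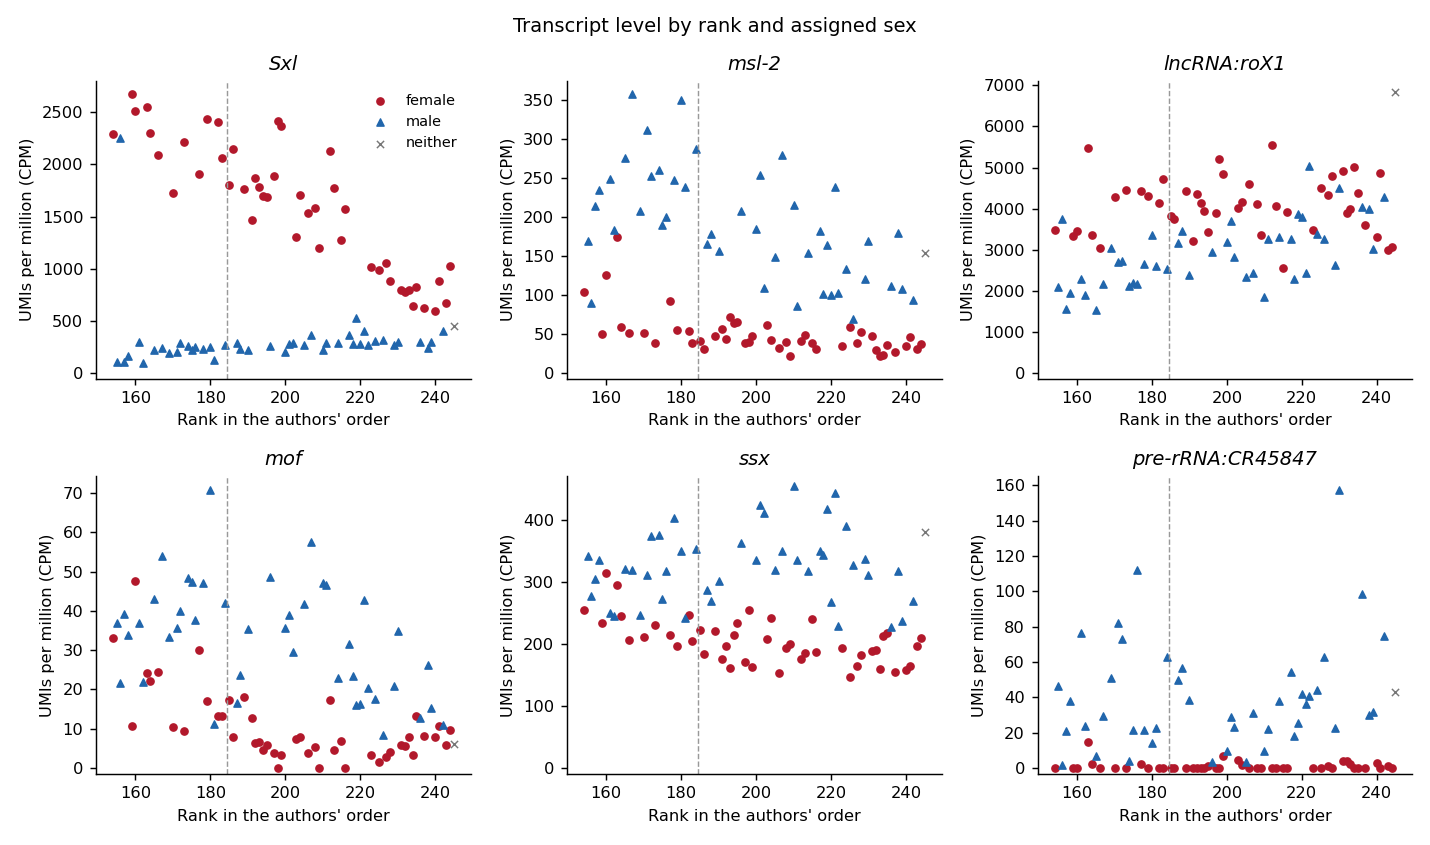
CPM of 6 genes in each embryo by rank in the authors' order, for the preceding 31 embryos (left of the dashed line) and the last 61 (right), with females as circles, males as triangles and the late embryo in neither class as a cross. Sxl lies higher in all 34 late females than in any late male, msl-2, mof, ssx and pre-rRNA:CR45847 lie higher in most males, and 1 embryo of rank 156, which the rule classed as male, has 2258 CPM of Sxl, inside the range of the females there.

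Among the signal elements and partners that act on Sxl, the X-linked members had positive values. Of 12 listed genes 11 were tested, 2 were higher in females and 0 higher in males, beside 4.05% and 1.1% of all genes tested, and the median was 0.19 against 0.00 over all genes tested. Both calls, sisA and run, are X-linked, and 22.5% of all X-linked genes tested were called higher in females. The bZIP gene sisA ran from 20.1 to 92.2 CPM in females (median 44.7) and from 9.09 to 83.5 CPM in males (median 29.9), with 0.64 ± 0.17 (adjusted p of 0.0106). It was no longer called without library 1, where it had 1.32 against 0.28 to 0.49 in the others. The runt-domain gene run had medians of 185 and 167 CPM (0.49 ± 0.14, adjusted p of 0.022), and no longer passed without library 1, 2 or 4. The proneural gene sc had 0.55 ± 0.21 (adjusted p of 0.115), and the JAK/STAT ligands upd1 and upd2 had 0.33 ± 0.17 and 0.20 ± 0.31 (adjusted p of 0.341 and 0.864). The autosomal partners da, emc, gro, dpn, her and Stat92E had values between -0.23 and 0.19 and none was called. The repressor dpn, which counts against the X in this pathway, had 268 CPM in females and 260 CPM in males.

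In the sex determination list, little besides Sxl differed. Of its 15 genes 13 were tested, and Sxl was the only one called, beside 4.05% of all genes tested that were higher in females. The splicing regulator gene tra, the direct target of Sxl, had 16.2 and 13.7 CPM (0.38 ± 0.16, adjusted p of 0.186). UMI counts at the end of a transcript do not show which splice form was made. The terminal regulators dsx and fru did not pass the filter, with medians of 0 CPM in both sexes. The cofactors snf, fl(2)d, vir, nito, Ythdc1, Mettl3 and Mettl14, which act with Sxl in splicing or in m6A modification of its RNA, had values from -0.12 to 0.28, and none was called. The exception on addition of rank was nito, with 0.30 and an adjusted p of 0.0048.

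Of the 10 dosage compensation genes, 9 were tested, and 1 was higher in females and 3 higher in males, beside 4.05% and 1.1% of all genes tested. The single call toward females was the noncoding roX1 (lncRNA:roX1), which ran from 2552 to 5541 CPM in females (median 4037) and from 1838 to 5046 CPM in males (median 3255). Its log2 fold change was 0.33 ± 0.09 (adjusted p of 0.0112), between 0.12 and 0.51 within libraries, and the adjusted p ran from 0.081 to 0.123 without library 1, 2 or 3. With sex taken from the other X-linked genes it was 0.22 (adjusted p of 0.229). In 7 embryos roX1 had over 3000 UMIs and at most 3482, and no gene had over 4092 UMIs in 1 individual. The rDNA unit pre-rRNA:CR45845 reached 3338 UMIs in 1 late embryo. The part of such an upper limit in the difference of roX1 or of that unit was not tested. The second noncoding RNA, roX2, did not pass the filter. It had 23 UMIs in 13 of 34 females and 70 UMIs in 19 of 26 males. The complex members msl-1 and mle had -0.20 ± 0.12 and 0.18 ± 0.08 (adjusted p of 0.471 and 0.224), and Clamp, a zinc finger protein that brings the complex to the X, had 0.13 ± 0.10.

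The X-linked patterning genes are set here beside the autosomal ones. Of 11 X-linked genes 8 were tested and all 8 had positive values, with 2 called and a median of 0.40. Over all X-linked genes tested, 22.5% were called higher in females, 78.4% were positive and the median was 0.20, so that 2 calls among 8 are near the share on the X as a whole. The zinc finger genes peb and btd had 0.73 ± 0.19 and 0.70 ± 0.21 (adjusted p of 0.00846 and 0.0314), with medians of 170 and 96.7 CPM and of 17.8 and 10.5 CPM in females and males. Without library 1 btd was no longer called, and without library 4 peb was not. The proneural genes l(1)sc and ac had 0.70 ± 0.28 and 0.43 ± 0.26, and the head gap gene oc 0.37 ± 0.18, none of them called. With rank in the fit, l(1)sc, ac and disco were called higher in females, as was sc of the signal elements. The genes disco, vnd and brk had 0.24 ± 0.08, 0.21 ± 0.14 and 0.11 ± 0.12. Of 20 autosomal patterning genes 19 were tested, and 0 were called by edgeR (0 at an unadjusted p under 0.05), with a median of 0.04, 10 positive and 9 negative values. Examples were wg at 722 and 740 CPM, twi at 746 and 779 CPM and kni at 235 and 190 CPM in females and males. The gastrulation list had 5 of 6 genes tested and 0 called by edgeR (0 at an unadjusted p under 0.05), although with rank in the fit the Notch target gene E(spl)m4-BFM was called with 0.19 (adjusted p of 0.0151), and the maternal RNAs in the clearance list had 3 of 6 tested and 0 called (1 at an unadjusted p under 0.05, exu with 0.34 ± 0.16). Summed levels of the 5 pole cell markers ran from 42.5 to 101 CPM in females and from 33.1 to 98.2 CPM in males. In whole embryos, fewer cells of a type and less RNA per cell cannot be told apart.

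**Figure D4:**
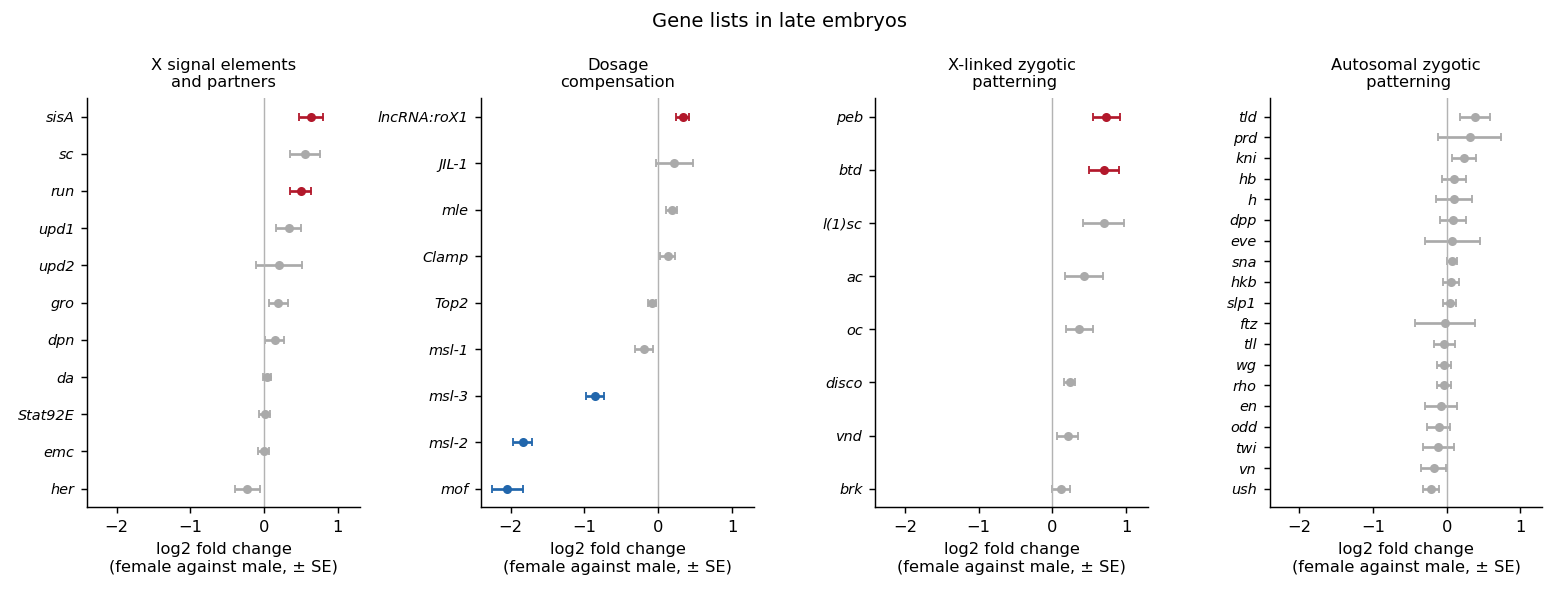
Log2 fold change of female against male late embryos with its SE for the tested genes of 4 lists, in red where called higher in females, in blue where called higher in males and in grey otherwise. The X-linked patterning genes all lie to the right of 0, the autosomal ones on both sides, and mof, msl-2 and msl-3 lie to the left.

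The 40 autosomal calls were small apart from msl-2, msl-3 and Tsp39D, with sizes of at most 0.67 on the log2 scale. The 5 with the smallest p were msl-2, msl-3, CG17715, Hsp83 and CG8654. The heat shock protein gene Hsp83, whose RNA is loaded by the mother, had 361 CPM in females and 283 CPM in males (0.35 ± 0.06, adjusted p of 5.17e-06), against 2214 CPM in eggs. CG8654, listed at 0 CPM at the egg median, had 89.2 and 56.4 CPM (0.60 ± 0.11, adjusted p of 5.20e-05). CG17715 had 77.3 and 112 CPM (-0.60 ± 0.09, adjusted p of 1.45e-06).

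The allele values allow signal of the maternal allele to be set beside the total, and each embryo of either sex holds 1 maternal X. Maternal-allele signal also includes RNA loaded by the mother. The authors' allele values are normalized and rounded by a method not given in the sources used here, and the difference is on the scale of log2(maternal value + 1), tested with limma. Of 1964 genes tested, 4 had a higher maternal value in females (0.204% of genes tested) and 25 in males (1.27% of genes tested), of which 3 and 19 were X-linked. The median difference over 298 X-linked genes was -0.22, and 24.8% were positive, while that of 1666 autosomal genes was 0.02. Of the 298, 287 had 1 CPM or more in eggs (median difference of -0.22) and 11 had less (-0.19). What part of these values is RNA loaded by the mother was not tested. For X-linked genes the total and the maternal value thus lay on opposite sides of 0 at the median, with females higher in total RNA and males higher in maternal-allele signal. Without library 1, 3 or 4, the count of genes with a higher maternal value in males was 7, 11 and 13, and with a pseudocount of 0.5 it was 15. Without library 3 the count for females was 2. The fit had library as its only covariate, and with log2 total UMIs added the counts were 6 in females and 36 in males.

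Several genes with a higher maternal value in males showed no called difference in total. ATPsyndelta, an ATP synthase subunit, had maternal values of 0 to 13 in females (median 4) and 6 to 33 in males (median 12), a difference of -1.70 ± 0.24 (limma adjusted p of 1.15e-06), and a total log2 fold change of -0.13. The Golgi protein gene Gmap had median maternal values of 2.5 and 12 and a median paternal value of 25.5 in females, with a difference of -1.46 ± 0.38, and a total log2 fold change of 0.49 that was not called. Vav, a guanine nucleotide exchange factor, had medians of 15 and 30 (-1.08 ± 0.22), with a paternal median of 15 in females and a total of -0.08. CG7536 had 6 and 12 (-1.09 ± 0.23) and was also higher in males in total, with -0.62. The autosomal bard and ATP8A had -1.69 ± 0.45 and -1.11 ± 0.31, and each missed the threshold under several alternatives. In the other direction CG2865 had median maternal values of 108.5 in females and 37 in males (1.64 ± 0.26). Rpt4, a proteasome ATPase, had 0.5 and 0 (2.20 ± 0.48), and the chaperonin subunit gene CCT6 had 55 and 37.5 (0.66 ± 0.15). The autosomal Bem46 had 2.5 and 0 (1.02 ± 0.23), and none of these genes had a called total. The maternal value of Rpt4 was 0 in every male and ran from 0 to 56 in females, while its total log2 fold change was -0.10. CG2865 had a paternal median of 78 in females and a total log2 fold change of 0.35. How well the allele values capture the RNA of Rpt4 or CG2865 was not tested. Of the genes named here for maternal value, ATPsyndelta and CG2865 stayed called whichever library was left out. Without library 1, Gmap, CG7536, Vav and Rpt4 were not called, and without library 3, CG7536, Bem46 and CCT6 were not. Gmap also lost its call without library 2, without library 4 and with a pseudocount of 0.5, and Bem46 lost its call without library 4.

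Maternal and paternal signal were each summed over 11 X-linked genes under 1 CPM in eggs. In females the paternal share was 52.1% ± 5.12 (SD, n = 34), with 48.3% ± 2.26 at autosomal genes under 1 CPM in eggs. A difference between the alleles within embryos was not tested. To allow for depth, each sum was divided by that of 107 autosomal genes of the same kind and is given per 100 of their units, a measure added after the data were seen and given without a test. In females the maternal X gave 4.44 ± 0.81 and the paternal X 4.80 ± 0.70 (SD, n = 34). In males the maternal X gave 5.88 ± 1.13 (SD, n = 26), with a range of 3.35 to 8.54 against 2.61 to 5.97 for the maternal X of females, so that the sexes overlapped. The mean of the male maternal X was 1.32 times that of the female maternal X. Both alleles together gave 9.25 ± 1.24 in females and 6.00 ± 1.03 in males, or 1.54 times more in females. Autosomal maternal shares were 51.7% ± 2.26 and 51.9% ± 2.06. Of these 11 genes, the integrin gene if, the netrin gene NetA and the TNF receptor gene wgn carried much of the signal. The integrin gene had mean values of 17.7 maternal and 19.9 paternal in females and 27.6 maternal in males, and wgn had 11.5, 14.4 and 19.9. None of the 11 was called on its own by limma in maternal value (3 at an unadjusted p under 0.05).

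**Figure D5:**
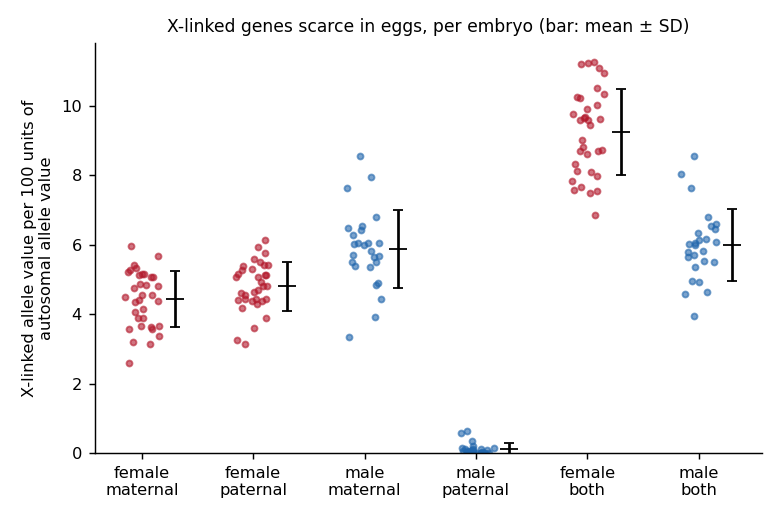
Summed allele value of 11 X-linked genes under 1 CPM in eggs, per 100 units of 107 autosomal genes of the same kind, in each late embryo, with the mean and SD beside the points. The maternal X of males (mean 5.88) lies between the single alleles of females (4.44 and 4.80) and both alleles of females together (9.25), and the male paternal value is near 0.

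The sex difference of Sxl became smaller along the late embryos. Rank comes from an order built on the same expression data, so that it is not independent of the levels tested against it. The interaction of sex with rank was called for 6 of 4617 genes (0.13% of genes tested), and for Sxl it was -0.35 ± 0.05 per 10 ranks (log2, edgeR adjusted p of 8.69e-06). Median Sxl in females was 1787 CPM at ranks 185 to 204, 1555 CPM at ranks 205 to 224 and 793 CPM at ranks 225 to 244, while males had 260, 282 and 296 CPM. The ratio of medians went from 6.88 to 5.51 and 2.68. The Sxl slope was called whichever library was left out, whereas those of the other 5 genes were each lost without at least 1. Rab10, which was higher in males, had 91.2 and 207 CPM in females and males at ranks 185 to 204 and 108 and 102 CPM at ranks 225 to 244 (0.29 ± 0.05 per 10 ranks). The nuclear RNA-binding protein gene su(sable) and the cell adhesion gene sdk, with CG3847, had positive slopes of 0.34, 0.22 and 0.24, and veil had a slope of -0.24. None of these 4 was called for the mean difference between the sexes with library alone in the fit, and with rank added CG3847 was called higher in males (-0.34, adjusted p of 0.0229). Without library 1 the count of called genes was 1, and without library 4 it was 3.

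The same rule was then applied to embryos that the comparison had not used, the 31 embryos just before the late ones in the order, where it gave 12 females, 18 males and 1 in neither class. The authors' order itself was built from the same expression data. An embryo of rank 156, classed as male by the rule, stood apart, with an autosomal paternal share of 0.735%, inside the egg range of 0.511% to 1.32%, whereas the other 17 males had at least 7.66%. It had 2258 CPM of Sxl, 89.1 CPM of msl-2, 3742 CPM of roX1, 1.44 CPM of pre-rRNA:CR45847 and 0 UMIs from the Y. Its Sxl and msl-2 lay inside the ranges of the 12 females and outside those of the other 17 males, so that its markers go against the class the rule gave it. The rule reads sex from paternal signal, which this embryo showed only at the egg level. With it, 34 of 4234 genes were higher in females (0.803% of genes tested) and 7 higher in males (0.165% of genes tested). Without it, the counts were 44 and 7. Without library 1, which leaves 5 females, the counts were 5 and 0, and msl-2, CG1673 and pre-rRNA:CR45847 were not called; without library 3 the male count was 1, and without library 4 it was 25.

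The sex genes differed here in the same direction. Sxl ran from 1726 to 2672 CPM in females and, without that embryo, from 93.1 to 292 CPM in males, so that the groups did not overlap. The log2 fold change of Sxl was 3.23 ± 0.34 (adjusted p of 5.79e-07) with that embryo and 3.56 ± 0.14 without it. The level of msl-2 had medians of 53.8 and 243 CPM (-1.73 ± 0.20, adjusted p of 2.65e-06). The rDNA unit pre-rRNA:CR45847 had medians of 0 and 26.5 CPM (-5.08 ± 0.70, adjusted p of 3.72e-05). The noncoding roX1 had 0.83 (adjusted p of 9.19e-05), with 0.33 late. CG1673 and prage, an exonuclease that takes part in the removal of maternal RNA, had 1.53 ± 0.20 and 1.10 ± 0.16. The prage locus shares 14341 bases with Adar on the same strand, and in late embryos it had 0.55 with an adjusted p of 0.224. The difference in mof was -0.87 ± 0.22 (adjusted p of 0.0392), with medians of 19.6 and 38.5 CPM, and whether this or the roX1 value differs from the late one was not tested across the windows. Without that embryo, msl-2 had -1.75 ± 0.19 and pre-rRNA:CR45847 -5.10 ± 0.64, and roX1, CG1673, prage and mof had 0.87, 1.52, 1.15 and -0.88, all of them called. Of the 41 genes called here, 28 were called in late embryos in the same direction and 0 in the opposite one. The 238 late calls included 210 that were tested here, of which 186 had the same sign, beside 2372 of all 4008 genes tested in both windows. The X-linked median was 0.07 over 718 genes, and 0.73 over the 13 with under 1 CPM in eggs. Y-linked genes had 0 UMIs in the 12 females and 39 in the 18 males.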

How the data were processed

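Raw UMI counts per gene and embryo, as the authors deposited them for the 4 libraries, were joined to the authors' order of embryos. The deposited allele values are a score, normalized and rounded by the authors, with 0.1 in place of 0; the method is not given in the sources used here. The submitters' processing notes name Trim Galore 0.6.10, SAMtools 1.17, GATK 4.4.0.0, Picard and R 4.2.1.

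Counts were tested with edgeR 4.0.16 (quasi-likelihood, TMM, filterByExpr, library as covariate, Benjamini-Hochberg threshold 0.05) in R 4.3.3, and log2(maternal value + 1) with limma 3.58.1 where the mean maternal value reached 1. DESeq2 1.42.0 was an alternative. Both sexes of embryo came from the same 4 libraries. Embryos are the replicates, and nothing states that they came from separate matings, so p-values measure only the spread between embryos. Spike-ins, gt and sog were not tested. Coordinates and chromosomes came from the BDGP6 annotation (version 54), in which 17735 of 17807 symbols matched. No late embryo repeated another. The late edgeR fit, its interaction fit and the limma fit were run on simulated data, and the alternatives and the preceding embryos were not. The members and gene lists were chosen with earlier results of these data known. Named genes were the 12 largest and 12 smallest log2 fold changes among called genes detected in 50% of the higher sex, the 5 autosomal calls with the smallest p, the 6 largest and 6 smallest maternal differences, every called interaction, the 5 smallest p of the earlier embryos, and the lists. Floors cover counting error only, whereas each SE comes from its fit and includes the spread between embryos.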

Additional observations from a re-analysis of the deposited data

Results flagged for a closer look

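Within the 4 libraries, the log2 fold change of lncRNA:CR43264 was 1.12 in 1 library, and that of Rab10 was -0.50 in 1 library, each far from the other 3. These were 2 of 32 groups of values examined in this way, and chance gives about 1 in 20. The sex difference changed with rank for 6 genes in edgeR's interaction test. The slopes per 10 ranks were -0.35 for Sxl and -0.24 for veil, and 0.29 for Rab10, 0.34 for su(sable), 0.22 for sdk and 0.24 for CG3847.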

How the results depend on the processing

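No called value changed direction under any alternative run that joined libraries. Within library 1 alone, Flo2 had a log2 fold change of 0.02, against -0.63 with all libraries. With library plus rank in the fit, 362 genes were higher in females and 217 in males, against 187 and 51; the cause was not tested. Without each library in turn, which also leaves fewer embryos, the late counts ran from 98 to 194 and from 21 to 65, and the X-linked median from 0.18 to 0.22. The autosomal median was -0.00919 with no filter, -0.0307 with library plus rank, -0.0243 with thresholds of 15% and 2%, -0.0243 with at least 300000 UMIs, and from -0.0276 to -0.0206 without each library; the cause was not tested. For maternal values, without each library, 2 to 4 genes were higher in females and 7 to 17 in males. A pseudocount of 0.5 gave 15 in males, and log2 total UMIs in the fit gave 6 in females and 36 in males. The cause was not tested. In the preceding 31 embryos the counts ran from 5 to 44 and from 0 to 25 without each library, and without library 1 edgeR's 0 male calls compared with 7 in all libraries. Interaction calls ran from 1 to 5. For single genes in the late comparison, 26 values lost their call, 9 gained one and 1326 did neither. Leaving out the 2 males over 2% at other X-linked genes, or the embryo of rank 156 at the egg level, was chosen after seeing the data. Library entered each fit as a block, and without it 200 and 56 late genes were called. No paired analysis of single embryos was possible because the labels pair none. At these depths genes with few UMIs did not pass the filter. Whether an upper limit near 4092 UMIs bears on roX1 or pre-rRNA:CR45845 was not tested.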

Other observations

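The genes of this section were chosen after their values were seen and lie outside the rule for named genes. The genes of 2 histone H3 methyltransferases were higher in males. E(z), the catalytic subunit of a Polycomb repressive complex, had medians of 103 CPM in females and 137 CPM in males (log2 fold change of -0.53 ± 0.10, female against male, edgeR adjusted p of 0.000269). Su(var)3-9, a heterochromatin enzyme, had 235 and 332 CPM (-0.50 ± 0.09, adjusted p of 9.41e-05). The X-linked Hsc70-3, a chaperone of the endoplasmic reticulum, had 575 and 974 CPM (-0.61 ± 0.12, adjusted p of 0.000311) against 1898 CPM in eggs. The cadherin gene shg was higher in females, with 294 and 235 CPM (0.34 ± 0.10, adjusted p of 0.0242).

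The late embryo in neither class had 447 CPM of Sxl, inside the male range, and 153 CPM of msl-2. Its paternal share at other X-linked genes was 0.418%, it had 42.9 CPM of pre-rRNA:CR45847, and it had 0 UMIs from the Y.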
